A study of Mus musculus with 2 samples.

Results

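Heme is built by a chain of enzymes, and the genes of it followed here were Alas1, Alas2, Alad, Uros, Urod, Cpox, Ppox and Fech. They were 8 of the 32285 genes of the count tables, picked by symbol for what they encode, with earlier results of these data known. Single cells of mouse bone marrow had been sequenced in 1 control and 1 DKO library, and all 8 genes had UMIs (unique molecular identifiers, each marking 1 captured RNA molecule) in both libraries. The control library is labelled WT, and the study's methods describe the controls of DKO mice as littermates that had Ddx41 fl/fl alleles and wild-type cGas and no VavCre. The DKO genotype was VavCre:Ddx41 fl/fl, cGAS-/-, so that by the methods the floxed Ddx41 alleles were shared by both genotypes and Cre and the cGAS deletion were not. The mice were 2 months old, and how many gave each library is not given in the sources used here. VavCre is driven by a promoter active in hematopoietic cells in general, so that Ddx41, a DEAD-box helicase, was deleted ahead of the erythroid lineage and not within it alone. Ddx41 had 2421 UMIs in the control library (20.2 CPM, UMIs per 1000000 UMIs) and 919 in the DKO library (8.003 CPM), and Cgas, the DNA sensor of the second deletion, had 1617 (13.5 CPM) and 832 (7.25 CPM). The libraries hold tags from 3′ ends of transcripts, which need not lie in the deleted parts of these genes, so that the remaining UMIs do not check the genotypes.

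Heme synthesis starts and ends in mitochondria. ALA synthase joins glycine and succinyl-CoA to 5-aminolevulinic acid (ALA) and sets the pace of the pathway. Alas1 encodes the form used by most tissues, and Alas2 the erythroid form. Alad, Uros and Urod encode cytosolic enzymes that join ALA into a pyrrole, close the porphyrin ring and trim its side chains. Cpox and Ppox encode mitochondrial oxidases that bring the ring to protoporphyrin, and Fech encodes ferrochelatase, which inserts the iron. Red cell precursors make most of the heme of the body, because hemoglobin carries a heme in each globin chain. The enzyme between Alad and Uros was not analysed here.

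Erythroid cells were 7521 of 18743 control and 6345 of 13729 DKO cells, with 44901613 and 58213321 UMIs. Their clusters were named from early and late erythroid markers that include none of the 8 genes. The cells were divided by the share of their UMIs that came from 10 hemoglobin genes, in 5 stages: under 15%, 15 to 40%, 40 to 75%, 75 to 90%, and 90% or more. The stages held 980, 545, 1190, 3441 and 1365 control cells and 701, 492, 1198, 1383 and 2571 DKO cells. The stage of 90% or more held 18.1% of the control and 40.5% of the DKO erythroid cells. Cells within 2 points of a stage bound were 34.0% and 30.4%. Erythroid cells of the DKO library were deeper in every stage, with a median of 8291 UMIs against 5541 at 75 to 90%. Levels are given as CPM, with the UMIs of a gene and of all genes summed over the cells of a stage, and with exact 95% Poisson intervals where shown. Each genotype had 1 library, so no difference was tested against a spread between animals, and every interval covers counting error only. Single cells of a library are not replicates of its genotype.

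Neighboring sequence is shown for Cpox and Urod, whose differences between the libraries ran in opposite directions up to 75% hemoglobin, and for Alas2, the erythroid ALA synthase. Of the 8 genes, 7 matched the RefSeq promoter table (GRCm38.p6), with 10 windows of 250 bases before a transcript start. Fech did not match. The windows were searched on both strands for the letters bound by GATA factors, the zinc finger proteins of erythroid genes (the letters AGATAA, the letters AGATAG, the letters TGATAA and the letters TGATAG), and for G-quadruplex letters, 4 runs of at least 3 G with 1 to 7 bases between them. Printed stretches stop ahead of the nearest annotated exon and run 5′ to 3′ along the gene. Capitals mark GATA letters in Alas2 and Cpox and quadruplex letters in Urod. They lie at chrX:150547167-150547374 (plus strand), chr16:58669958-58670207 (plus strand) and chr4:116994414-116994663 (minus strand), each ahead of the first annotated base of its gene. The Alas2 stretch also lies in an intron of Apex2, which is annotated on the other strand, and no other annotated gene overlaps the Cpox and Urod stretches.
Alas2: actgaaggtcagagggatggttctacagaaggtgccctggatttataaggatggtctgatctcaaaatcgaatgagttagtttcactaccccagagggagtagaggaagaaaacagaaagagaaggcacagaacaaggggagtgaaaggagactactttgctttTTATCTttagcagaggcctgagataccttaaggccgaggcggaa
Cpox: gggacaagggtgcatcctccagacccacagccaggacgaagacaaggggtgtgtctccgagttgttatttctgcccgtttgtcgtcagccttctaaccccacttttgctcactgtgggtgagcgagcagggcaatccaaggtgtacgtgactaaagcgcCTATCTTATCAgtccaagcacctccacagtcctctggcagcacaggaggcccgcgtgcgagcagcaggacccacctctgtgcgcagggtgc
Urod: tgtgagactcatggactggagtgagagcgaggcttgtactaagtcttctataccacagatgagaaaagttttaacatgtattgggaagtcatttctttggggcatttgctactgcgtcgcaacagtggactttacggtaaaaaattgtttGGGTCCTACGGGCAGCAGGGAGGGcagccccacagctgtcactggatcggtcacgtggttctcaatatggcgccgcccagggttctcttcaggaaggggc
In the Alas2 window the GATA letters began 86 bases ahead of the RefSeq start. In the Cpox window they began 91 bases ahead of it and include overlapping matches. The quadruplex letters of Urod began 100 bases ahead of the start. A further quadruplex match of Alas2 began 42 bases ahead of its start, past the printed stretch. GATA letters stood in 3 of the 10 windows (Alas2, Cpox and 1 of Uros) and in 26.5% of 32851 windows of all genes. Quadruplex letters stood in 4 of the 10 (Alas2, Urod and both of Alad, which overlap and share a match) and in 16.7% of all. Ppox and Alas1 had neither. A match of letters is a description of the window and does not show binding or folding.

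In CPM, Alas2 rose with the hemoglobin share and stayed high, while the genes of the middle steps rose early and then nearly vanished. In the control library Alas2 was at 223, 848, 1390, 1483 and 1372 CPM over the 5 stages. In the DKO library it was at 202, 830, 1296, 1564 and 1419 CPM. Both libraries were highest at 75 to 90%, 6.65-fold above the earliest stage in the control library (6.31 to 7.02) and 7.75-fold in the DKO library (7.35 to 8.17). In UMIs per cell, Alas2 was instead highest at 40 to 75%, with 9.31 in control and 14.0 in DKO cells. By the last stage these had fallen to 7.18 and 11.5. From 40% hemoglobin on, between 97.4% and 99.4% of cells had an Alas2 UMI in either library. At 15 to 40% this share was 97.2% of control cells and 85.6% of DKO cells, and there 84 of 492 DKO cells but 6 of 545 control cells belonged to an early erythroid cluster with a median of 899 UMIs. The part of that cluster in the difference was not tested.

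Alad, which encodes the enzyme that pairs ALA molecules, was highest at 15 to 40%, with 762 CPM in control and 698 CPM in DKO cells. It stood at 439.6 and 439.7 CPM at 40 to 75%, at 12.3 and 20.9 CPM at 75 to 90%, and at 3.92 and 2.92 CPM from 90% on. The fall from the highest to the last stage was thus 194-fold in the control library (interval 134 to 293) and 239-fold in the DKO library (185 to 313). Uros, the gene of the ring-closing enzyme, followed the same course at a lower level, from 155 CPM at 15 to 40% to 1.26 CPM in the control library and from 183 to 1.05 CPM in the DKO library. Ppox went from 203 to 3.64 CPM in the control library and from 179.9 to 3.12 CPM in the DKO library. Cpox, with the highest peak of the middle genes in UMIs, fell from 909 to 11.1 CPM in the control library and from 1077 to 6.81 CPM in the DKO library. All 4 were highest at 15 to 40% in both libraries.

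Urod, the gene of the decarboxylase that trims the side chains, lasted longer. It was at 504, 492, 176 and 34.9 CPM from 15 to 40% on in the control library and at 426, 405, 185 and 41.0 CPM in the DKO library. Its fall was 14.5-fold (12.7 to 16.5) in the control library and 10.4-fold (9.61 to 11.3) in the DKO library. Fech, which acts last, was highest at 40 to 75%, with 811 CPM in control and 947 CPM in DKO cells. It was still at 261 and 386 CPM in the last stage, a fall of 3.10-fold and 2.45-fold. The members of the pathway therefore did not leave in the order of their steps: the genes of the outermost steps, Alas2 and Fech, kept the largest part of their peak level, and of the genes between them Urod kept most.

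**Figure D1:**
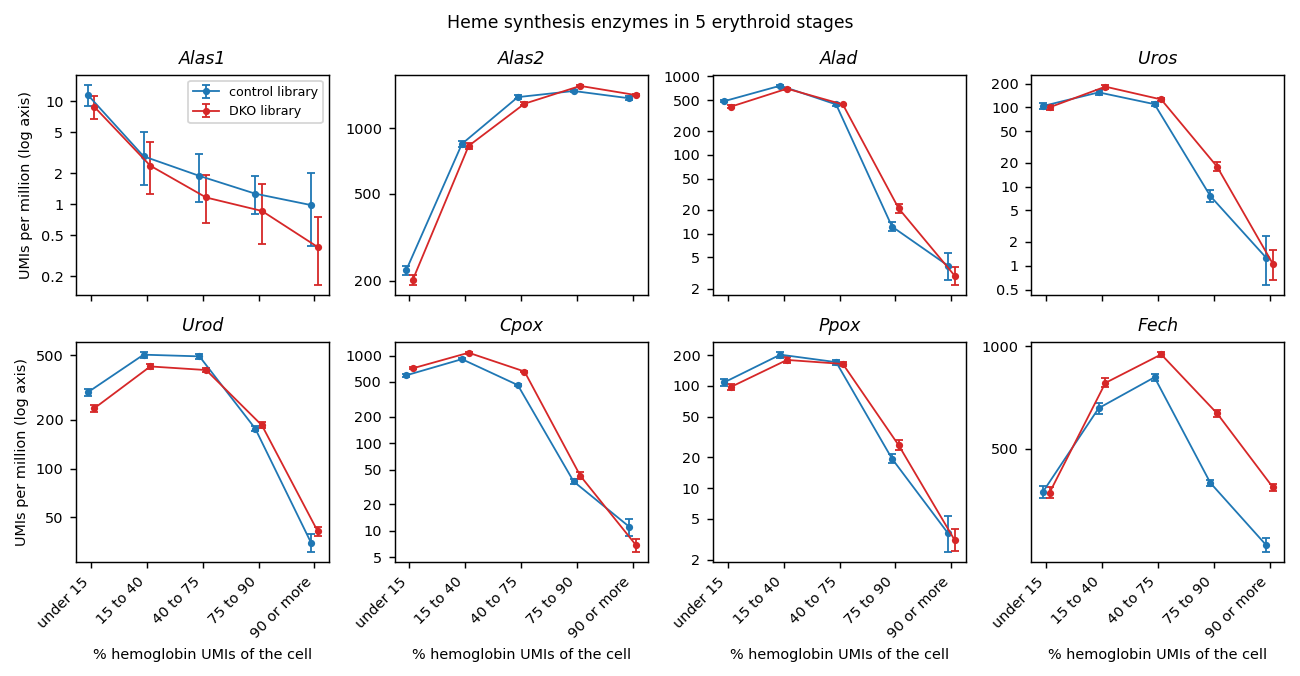
CPM (log axis, with its own range in each panel) of the 8 genes in 5 erythroid stages set by the hemoglobin share of a cell, in the control (blue) and DKO (red) libraries; bars are exact 95% Poisson intervals, which cover counting error only. Alas2 lies between 1296 and 1564 CPM from 40% hemoglobin on, while Alad, Uros, Cpox and Ppox fall to between 1.05 and 11.1 CPM in the last stage.

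Because hemoglobin UMIs take up most of a late cell's total, the same UMIs were also set against the UMIs of all other genes. The stages are cut by hemoglobin share, so that the part left for other genes shrinks by construction from stage to stage. A rise on this scale therefore need not be a rise per cell. On this scale Alas2 rose through all 5 stages, to 16397 CPM in control and 19208 CPM in DKO cells, although its UMIs per cell fell after 40 to 75%. Fech rose as well, 7.997-fold from the first to the last stage in the control library and 13.5-fold in the DKO library. Alad still fell, from 1065 CPM at 40 to 75% to 46.8 CPM in the control library and from 1047 to 39.6 CPM in the DKO library. Urod was highest at 75 to 90% in both libraries, with 1256 and 1220.4 CPM. From their highest to the last stage Alad, Uros, Cpox and Ppox still fell by between 9.28-fold and 26.5-fold, whereas the late fall of Fech turned to a rise.

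Counts of the last stages were partly within reach of free RNA, the RNA of broken cells that enters every droplet. From the profile of 1125245 control barcodes with at most 100 UMIs and the neutrophil genes S100a8 and S100a9 in erythroid cells, free RNA made up at most 2.55% of the control UMIs at 90% hemoglobin or more. It could then bring up to 78.3% of the Alad, 63.1% of the Uros, 45.5% of the Cpox and 34.1% of the Ppox UMIs of that stage, but 9.92% of Urod, 3.19% of Fech and 0.77% of Alas2. The DKO table lists called cells only, and no such bound was made for it. The 8 neutrophil markers summed to 428 CPM in control and 182 CPM in DKO cells in that stage, and at 75 to 90% to 500.5 and 233 CPM. Markers of other non-erythroid classes summed to at most 76.0 CPM in either library in these 2 stages.

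The ALA synthase genes divided the marrow between them. Alas1 was at 349 CPM in progenitor-like cells of the control library (2046 UMIs in 347 cells) and at 351 CPM in those of the DKO library (1099 UMIs in 148 cells). Neutrophil-like cells had 123 and 98.0 CPM, and monocyte-like cells 97.4 and 92.3 CPM. In erythroid cells Alas1 fell from 11.5 and 8.77 CPM under 15% hemoglobin to 0.98 and 0.38 CPM in the last stage, with 132 UMIs in all control and 110 in all DKO erythroid cells. Free RNA could bring 44.4% of its control UMIs under 15% hemoglobin and between 95.3% and 129% from there on, so that later Alas1 UMIs cannot be told apart from free RNA.

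**Figure D2:**
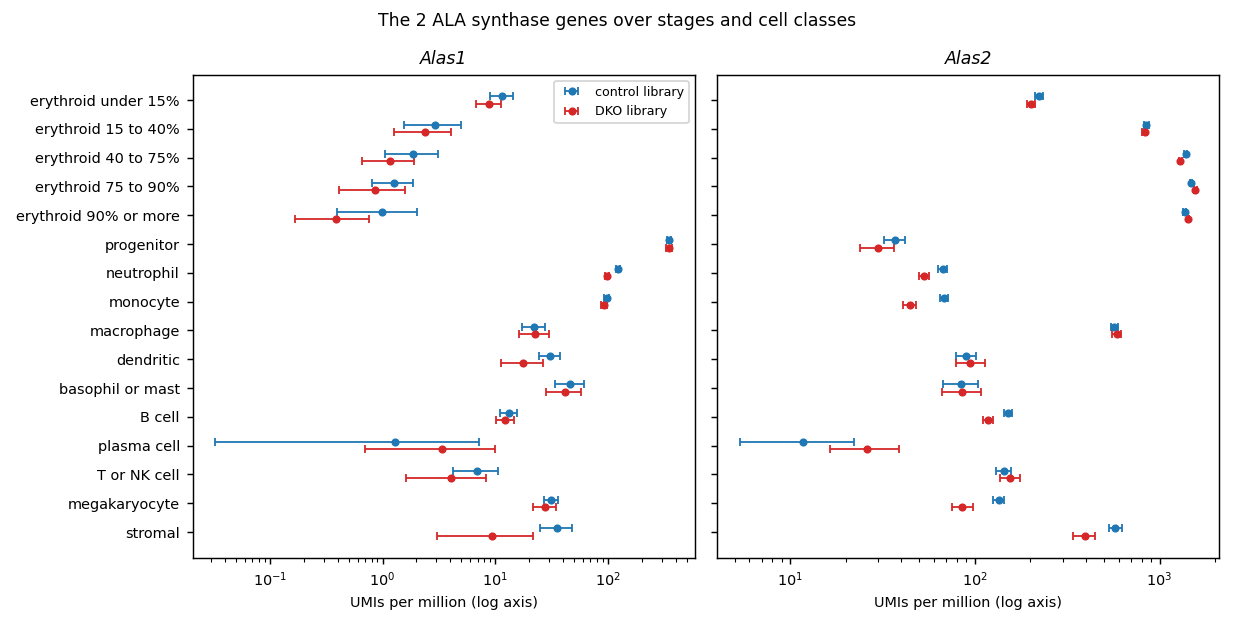
Alas1 (left) and Alas2 (right) in 5 erythroid stages and 11 other marrow classes, as CPM (log axis) in the control (blue) and DKO (red) libraries with exact 95% Poisson intervals for counting error. Alas1 is highest in progenitor-like cells (349 and 351 CPM), and Alas2 from 40% hemoglobin on.

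Alas2 made up 95.1% of the ALA synthase UMIs under 15% hemoglobin in the control library (exact binomial interval 93.9% to 96.1%) and 95.8% in the DKO library (94.7% to 96.8%), 99.7% in both at 15 to 40%, and more from there on. In progenitor-like cells the share was 9.55% (8.37% to 10.8%) and 7.80% (6.34% to 9.47%). The UMIs are 3′ tags, but whether intronic reads were counted is not given, so that a term for gene length is not excluded. Their capture may also differ between the genes. Alas2 UMIs in other classes moved with hemoglobin: per 1000 hemoglobin UMIs there were between 1.65 and 2.77 in all other classes of both libraries and 2.87 in the empty control droplets. Free RNA of that hemoglobin content could bring over 100% of the control Alas2 UMIs in each of these classes but macrophage-like and stromal-like cells. There it would have to make up 231% and 229% of all UMIs, which cannot be, so that no such bound holds for them. Macrophage-like cells, with 569 and 585 CPM of Alas2, had 33.6% and 33.5% hemoglobin UMIs. In the macrophage-like cells with under 1% hemoglobin Alas2 was at 16.7 and 8.33 CPM.

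Within erythroid cells Alas2 UMIs rose less than hemoglobin UMIs. Per 1000 hemoglobin UMIs it was at 5.30 (5.02 to 5.58) under 15% in the control and at 5.37 (5.10 to 5.65) in the DKO library. It then fell to 2.99 and 2.90, 2.37 and 2.24, 1.73 and 1.84, and at last 1.498 (1.47 to 1.53) and 1.53 (1.52 to 1.55). Intervals of the libraries overlapped under 15%, at 15 to 40% and barely in the last stage, and did not overlap at 40 to 75% and 75 to 90%, where the libraries differed in opposite directions.

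In other classes Urod was at 31.3 and 29.1 CPM in progenitor-like cells, 36.4 and 32.4 CPM in monocyte-like cells and 53.5 and 46.3 CPM in megakaryocyte-like cells of the control and DKO libraries. Macrophage-like cells had 64.3 and 33.3 CPM of Urod. Stromal-like cells had 92.5 and 74.2 CPM of Urod, 46.3 and 126 CPM of Cpox and 36.1 and 72.3 CPM of Alad, from 100 UMIs or fewer each, with 33.3% and 22.0% hemoglobin UMIs. Uros lay between 1.29 and 16.7 CPM in all 11 other classes of both libraries. Erythroid cells held 77.3% to 86.0% of the control UMIs of the 7 members other than Alas1 and 85.8% to 94.2% of the DKO UMIs. For Alas1 these shares were 1.84% and 2.32%.

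Across the 5 stages and 11 other classes of both libraries (32 points, which share libraries, free RNA and, for the stages, cells sorted by hemoglobin), the levels of Cpox and Uros (Pearson r = 0.98), Alad and Cpox (0.97), Uros and Ppox (0.96) and Alad and Uros (0.96) were the most alike among the members. Alas2 was most like Fech (0.92) and less like Alad (0.32). Of 10808 other genes, those most like Alas2 were the globin genes Hbb-bt (0.99) and Hba-a1 (0.98) and Ube2l6 (0.98), a gene of the ubiquitin-like ISG15 pathway. Cpox and Alad were most like Ptdss2 (both 0.98), a gene of phospholipid synthesis, Uros and Ppox most like Pigq (0.98 and 0.97), a gene of GPI anchor synthesis, Urod most like March5 (0.98), a mitochondrial ubiquitin ligase gene, and Alas1 most like Anxa3 (0.95).

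The DKO library was then compared with the control library stage by stage. Of the 40 pairs of a member and a stage, 29 reached 20 CPM as the mean of the libraries. None was lower in the DKO library by 1.5-fold or more, and 1 was higher, Fech at 75 to 90% hemoglobin. Of all genes at that level, 37.8% of 679 were higher by this measure at 75 to 90%, so that the Fech value is within a shift of many genes. In the other stages the share of all genes that were higher was 2.92%, 2.41% and 12.3% in turn up to 75% and 13.8% in the last stage. The share that were lower was 2.36%, 3.39%, 5.82%, 15% and 29.7% over the 5 stages. With hemoglobin UMIs left out of the totals, again 1 pair was higher, Fech in the last stage, and none lower. Higher by that scaling were 2.66%, 2.53%, 11.6%, 33.7% and 20.8% of all genes in the 5 stages, and lower were 2.36%, 3.28%, 6.45%, 18.7% and 26.9%. The median log2 ratio of DKO over control over all genes at 20 CPM or more was 0.10, 0.04, 0.11, 0.30 and -0.22 in the 5 stages. Over the members that reached that level (7, 7, 7, 5 and 3) the median was -0.14, -0.03, 0.00, 0.22 and 0.23. Over all 8, the 11 pairs under 20 CPM included, it was -0.15, -0.08, -0.03, 0.33 and -0.30.

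**Figure D3:**
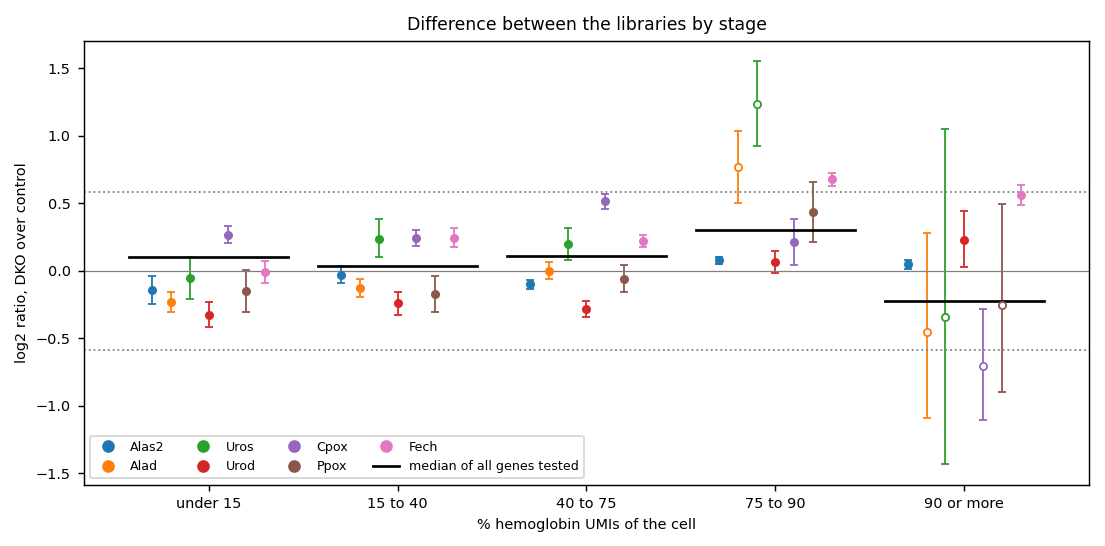
Log2 ratio of DKO over control of 7 members (Alas1, with few erythroid UMIs, is left out) in 5 erythroid stages; bars are exact 95% intervals for counting error, open points are members under 20 CPM, black lines are the median of all genes tested in a stage and dotted lines mark 1.5-fold. Cpox lies above 0 and Urod below 0 in the 3 stages up to 75% hemoglobin, and Fech lies above the all-gene median from 15% on.

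Cpox was higher in the DKO library up to 75% hemoglobin. It had 594 CPM in control and 715 CPM in DKO cells under 15%, 909 and 1077 CPM at 15 to 40%, and 460.1 and 657 CPM at 40 to 75%. The log2 ratios were 0.27 (0.21 to 0.33), 0.24 (0.19 to 0.30) and 0.51 (0.46 to 0.57). Of all genes tested in these stages, 71.8%, 77.7% and 82.3% had a ratio at or below that of Cpox. No interval of CPM overlapped between the libraries in these 3 stages. At 75 to 90% the ratio was 0.22 (0.04 to 0.38), but 0.11 (-0.06 to 0.28) scaled without hemoglobin, -0.09 scaled to the median ratio of all genes and -0.07 with the weighting of DKO cells to the control hemoglobin shares. In the last stage it was -0.71 (-1.11 to -0.28), from 79 control and 142 DKO UMIs.

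Urod went the other way in the same cells. It had 295 CPM in control and 236 CPM in DKO cells under 15%, 504 and 426 CPM at 15 to 40%, and 492 and 405 CPM at 40 to 75%. The log2 ratios were -0.32 (-0.42 to -0.23), -0.24 (-0.33 to -0.16) and -0.28 (-0.34 to -0.22). Of all genes tested in these stages, 7.61%, 18.1% and 17.9% had a ratio at or below that of Urod. With stages set by the hemoglobin share alone, whatever the cluster, the ratio at 15 to 40% was 0.03, and that of Cpox there was 0.58. At 75 to 90% the interval held 0, with a ratio of 0.07 (-0.01 to 0.14), and in the last stage the ratio was 0.23 (0.03 to 0.44).

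A ratio of these genes within a library needs no scaling to a total. Cpox UMIs per Urod UMI were 2.01 (1.90 to 2.13) in the control and 3.03 (2.87 to 3.20) in the DKO library under 15% hemoglobin. They were 1.81 and 2.53 at 15 to 40%, and 0.936 (0.894 to 0.979) and 1.62 (1.57 to 1.68) at 40 to 75%. The libraries came near each other at 75 to 90%, with 0.207 (0.190 to 0.225) and 0.229 (0.208 to 0.253), and their order was turned in the last stage, with 0.317 (0.243 to 0.410) and 0.166 (0.138 to 0.199).

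Fech differed by -0.01 (-0.09 to 0.07) under 15%, with 374 CPM in control and 372 CPM in DKO cells. With cells thinned to 2000 UMIs, which leaves out shallower cells, the ratio there was 0.55 (0.34 to 0.75). From there on it was higher in the DKO library in every stage, with 659 and 781 CPM at 15 to 40%, 811 and 947 CPM at 40 to 75%, 398 and 636 CPM at 75 to 90%, and 261 and 386 CPM in the last. The log2 ratios of these 4 stages were 0.25 (0.18 to 0.31), 0.22 (0.18 to 0.27), 0.68 (0.63 to 0.72) and 0.56 (0.49 to 0.64). Of all genes tested in them, 78.0%, 60.0%, 65.5% and 85.3% had a ratio at or below that of Fech. The share of cells with a Fech UMI in the last stage was 67.5% of control and 89.8% of DKO cells. With cells thinned to 2000 UMIs it was 38.6% and 51.0%. Scaled without hemoglobin, the ratio was 0.57 at 75 to 90%, where it no longer reached 1.5-fold, and 0.74 (0.67 to 0.82) in the last stage, where it did. With a scaling to the median ratio of all genes it was 0.38 at 75 to 90%.

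Fech UMIs per Alas2 UMI fell through the stages in both libraries and were higher in the DKO library from 15% hemoglobin on. They were 1.68 (1.57 to 1.79) and 1.84 (1.73 to 1.96) under 15%, where the intervals overlapped. They were 0.776 and 0.940, 0.584 and 0.730, 0.268 (0.262 to 0.275) and 0.407 (0.396 to 0.418), and 0.190 (0.181 to 0.200) and 0.272 (0.265 to 0.279) in the later stages, without overlap of the intervals.

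**Figure D4:**
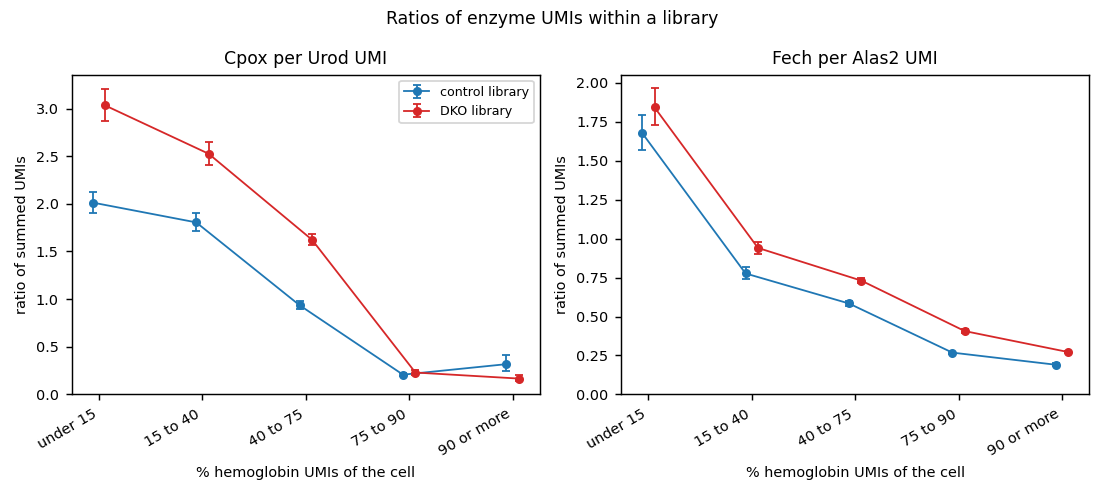
Summed Cpox UMIs per Urod UMI (left) and Fech UMIs per Alas2 UMI (right) in 5 erythroid stages of the control (blue) and DKO (red) libraries, with exact 95% intervals for counting error on axes that start at 0. The DKO library is above the control library in the left panel up to 75% hemoglobin and in the right panel from 15% on.

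Alas2 had log2 ratios between -0.14 and 0.08 in the 5 stages. Under 15% its ratio was 0.38 with cells thinned to 2000 UMIs, and its steps of 5 points of hemoglobin share ran from -0.44 (-0.64 to -0.25) under 5% to 0.29 (0.10 to 0.48) at 10 to 15%. Alad was lower under 15% (-0.23, -0.30 to -0.16) and at 15 to 40% (-0.13, -0.19 to -0.06), at 0.00 at 40 to 75% and, from 233 control and 243 DKO UMIs, higher at 75 to 90% (0.77, 0.50 to 1.03). Uros was higher at 15 to 40% (0.24, 0.10 to 0.38), at 40 to 75% (0.20, 0.08 to 0.32) and, from 144 control and 208 DKO UMIs, at 75 to 90% (1.23, 0.92 to 1.55). With the DKO cells weighted to the hemoglobin shares of the control cells, these ratios at 75 to 90% were 0.36 for Alad and 0.75 for Uros. Their steps of 5 points were at 0.40, 0.81 and -0.18 for Alad and at 0.68, 0.79 and 0.43 for Uros. Ppox lay between -0.26 and 0.44, with an interval below 0 at 15 to 40% and above 0 at 75 to 90%. Alad and Uros were under the 20 CPM limit at 75 to 90%, where the median of all genes was at 0.30 and free RNA could bring 30.4% of the control Alad and 12.8% of the control Uros UMIs.

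Cells of a stage did not have the same hemoglobin share or clusters in both libraries. In steps of 5 points of hemoglobin share, Cpox was above 0 in all 15 steps under 75%, between 0.19 and 0.67, with an interval above 0 in 14. Urod was below 0 in all 15, between -0.60 and -0.03, with an interval below 0 in 12. Fech was above 0 in 13 of the 15, with an interval above 0 in 11, and at 0.58, 0.71 and 0.61 in the steps from 80 to 95%. Alas2 was below 0 in 10 of the 15 and above it in 5. Cpox was at -0.14, 0.18 and -0.31 in the steps from 75 to 90% and -0.67 at 90 to 95%. Within the stage of 75 to 90%, where the ratio of Urod was 0.07, its steps were at -0.30, 0.05 and -0.13, and at 90 to 95% it was at 0.34 (0.14 to 0.56).

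**Figure D5:**
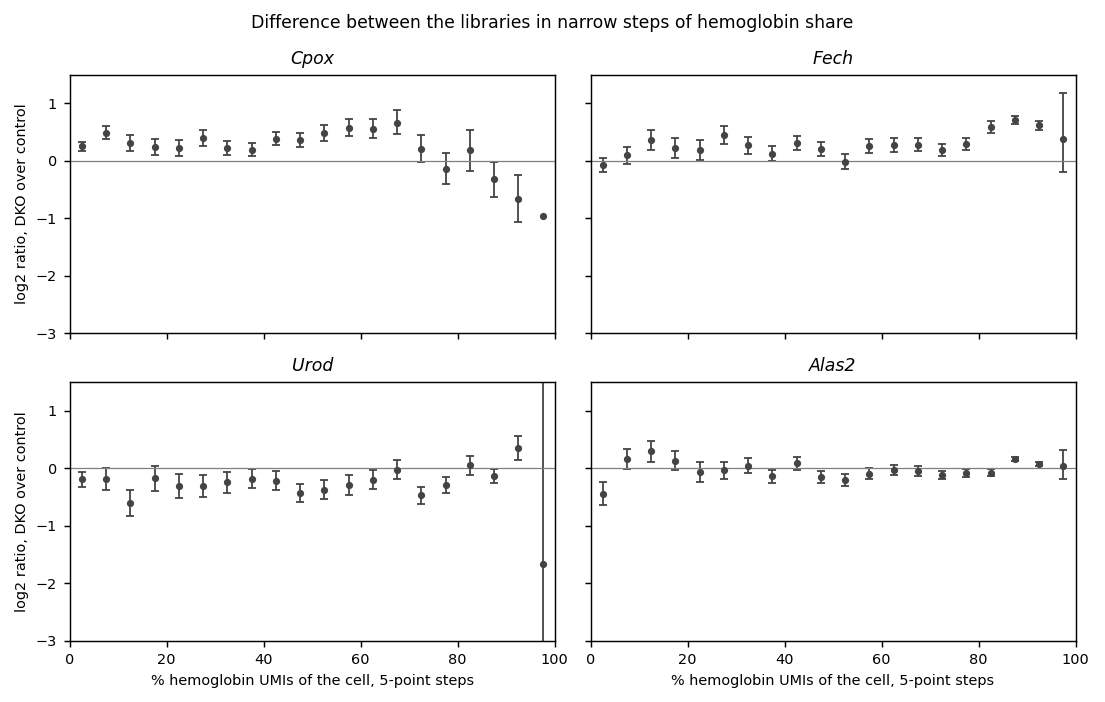
Log2 ratio of DKO over control in 20 steps of 5 points of hemoglobin share for Cpox, Fech, Urod and Alas2, with exact 95% intervals for counting error; the last step holds 29 control cells, its Urod interval runs off the axis and its Cpox interval, with 0 control UMIs, is not drawn. Cpox lies above and Urod below 0 in all steps under 75%, and Fech is highest at 85 to 90% (0.71).

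Among 9 erythroid clusters, Fech was higher in the DKO library in 7, all with an interval above 0, and lower in a late cluster with -0.23 (-0.32 to -0.14). Urod was lower in 8, all with an interval below 0. Cpox was higher in 5, with an interval above 0 in 4, and lower in 4, with an interval below 0 in 3. These 3 were late erythroid clusters. In the largest of them (2823 control and 2346 DKO cells) Cpox was at -1.41 (-1.77 to -1.07), Urod at -1.34 (-1.51 to -1.17) and Fech at 0.34 (0.29 to 0.40), and 2024 of its DKO but 1225 of its control cells lay at 90% hemoglobin or more. This largest cluster, led by Bpgm, held 46.1% of control and 22.6% of DKO cells at 75 to 90%. A late cluster led by Tmcc2 held 9.10% and 25.7% there, with Fech at 0.12 over all its cells. A late cluster led by Isg15, an interferon-induced gene, held 43.1% of control and 49.9% of DKO cells at 75 to 90%. In the last stage it held 9.82% and 21.2%, and Fech over all its cells was at 0.46. Without it, an alternative chosen after seeing the data, 5 members were higher by 1.5-fold or more, all at 75 to 90% (Alad, Uros, Cpox, Ppox and Fech). There 51.6% of all genes were also higher by 1.5-fold or more, with a median of 0.66, so that nothing is read from this count about the members. Without this cluster Urod in the last stage was at -0.47. The part of the clusters in the differences was not tested.

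Of genes that serve the same pathway, 13 genes of heme transport and regulation and 4 of heme breakdown were read in the same way. None of 12 tested genes of the former list was past 1.5-fold in any stage up to 75%, with medians of 0.05, 0.02 and 0.10. At 75 to 90%, 4 of 6 were higher, with a median of 1.06 beside 37.8% and 0.30 for all genes. These were Slc25a37, the mitochondrial iron importer mitoferrin 1 (526 and 1016 CPM, 0.95), and, named after their values were seen, Abcb10, a mitochondrial inner membrane transporter (1.55), Abcg2, a porphyrin exporter (1.497), and Eif2ak1, the heme-regulated kinase HRI (1.18). In the control library Abcb10, Abcg2 and Eif2ak1 fell from 507, 267 and 334 CPM at 40 to 75% to 32.3, 14.4 and 56.5 CPM here. No weighting to the control hemoglobin shares was made for the list genes, and the part of such shares in their ratios was not tested. Slc25a37 alone of the 3 tested was also higher in the last stage (346 and 560.3 CPM, 0.69, 0.63 to 0.76), beside 13.8% of all genes. The others tested there, Fam210b and Slc48a1, were at -0.08 (-0.22 to 0.05) and -0.25 (-0.38 to -0.12). At 75 to 90% they were at 0.11 and -0.125. Slc25a37 and Fech were both higher in the DKO library from 75% hemoglobin on, as were many other genes in these stages. With all UMIs counted, Fech was under 1.5-fold in the last stage. Of the 4 heme breakdown genes, 1 was past 1.5-fold under 15%, beside 2.36% of all genes that were lower. Hmox1, the inducible heme oxygenase, also named after its values were seen, was lower under 15% (27.1 and 14.5 CPM, -0.90). In the later stages it was under 20 CPM, at -1.32, -0.975, -0.85 and -1.21. Macrophage markers, Hmox1 itself among them, summed under 15% to 63.4 CPM in control and 31.1 CPM in DKO cells. The part of macrophage RNA in the Hmox1 difference was not tested. Blvrb, the gene of biliverdin reductase B, was not past 1.5-fold but was lower in all 5 stages (-0.53, -0.27, -0.35, -0.50 and -0.50), and is likewise named after its values were seen.

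In the classes with most Alas1 UMIs, Alas1 differed by 0.01 (-0.10 to 0.12) in progenitor-like cells, -0.08 (-0.18 to 0.03) in monocyte-like cells and -0.32 (-0.41 to -0.24) in neutrophil-like cells, where the median of all genes was at 0.15.

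On GRCm38 chromosome 4 holds both Alad and Urod, and no other chromosome holds more than 1 member. Alas1 lies at chr9:106233455-106248654, Alas2 at chrX:150547375-150570638, Alad at chr4:62509169-62519918, Uros at chr7:133686243-133710072 and Urod at chr4:116989965-116994413. Cpox lies at chr16:58670292-58717636, Ppox at chr1:171275990-171281186 and Fech at chr18:64452914-64490251. Cpox and Alas2 are on the plus strand and the other 6 on the minus strand. All UMIs of a gene are summed over its transcripts, so that isoforms are not told apart.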

How the data were processed

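The authors sequenced femoral bone marrow cells with Chromium 3′ v3 chemistry and counted them with Cell Ranger (7.1.0 in the headers). The submitters' processing notes name mm10. The annotation and the treatment of intronic reads are not given in the sources used here. The deposited matrices hold raw UMI counts, of all 1518290 barcodes for the control library and of 14142 called cells for the DKO library.

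Control cells were called here from a UMI threshold of 4869 and, for 10284 smaller barcodes from 500 UMIs, a Monte Carlo test against barcodes of at most 100 UMIs (10000 iterations, false discovery rate 0.01), which left 19222. Cells over 20% mitochondrial UMIs (173 control, 215 DKO) and Scrublet doublets (306 and 198) were left out. The kept cells had 119641016 and 114830668 UMIs, with medians of 4882 and 6904 per cell, and 75 barcodes were shared by the libraries. Clusters (scanpy 1.11.5, Leiden resolution 1.0) were made without the 8 members, Ddx41 and Cgas. A cluster took the class whose markers had the highest mean log2 fold over all other cells. It was left unnamed under 3 raised markers or where other classes' genes led it. Limits added after values were seen also left it unnamed under 50 cells. They did so, too, with 3 or more of its 10 leading genes shared with a larger cluster of another class. Unnamed clusters held 275 control and 162 DKO cells.

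UMIs were summed per library and stage. Log2 ratios had 1 count added and exact conditional binomial intervals, and CPM exact Poisson and shares Clopper-Pearson ones, at 95%. Counts past 1.5-fold cover genes of at least 20 CPM. No test was made, and the computations were tested on simulated data. The members and lists were chosen with earlier results of these data known, and the promoter letters after the values were seen. Named were all members, genes of the lists past 1.5-fold one way in at least 2 stages, and the genes most like each member by Pearson correlation of log2(CPM + 5). A result of this last rule is not reported here. Gene positions come from GENCODE M21 (GRCm38), which held 32158 of the 32285 gene identifiers. Alternatives covered scaling, cell calling, doublets, mitochondrial limit, depth, staging, clustering, count added, hemoglobin weighting, level minimum and fold.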

Additional observations from a re-analysis of the deposited data

How the results depend on the processing

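No paired analysis was possible because each genotype has 1 library and no replicate numbers to pair, and for the same reason no replicate could be left out. The counts of members past 1.5-fold (0 lower, 1 higher, of 29) became 1 lower and 2 higher with cells thinned to 2000 UMIs (Urod under 15%, and Fech in the last 2 stages), 1 lower and 2 higher with stages by hemoglobin share alone (Alas1 at 15 to 40%, and Cpox at 40 to 75% with Fech), 2 higher with DKO cells weighted to the control hemoglobin distribution, 1 lower and 3 higher of 33 with a minimum of 5 CPM, and 0 higher at 2-fold. Without the Isg15-led cluster, an alternative chosen after seeing the data, 5 of 31 were higher, beside 51.6% of all genes at 75 to 90%. The members' median at 75 to 90% hemoglobin (0.33) was 0.024 with median-of-ratios scaling, 0.11 with the weighting and 0.66 without that cluster. The cause of these changes was not tested, apart from the level minimum and fold, which act by their construction. The median in the last stage lay between -0.60 and -0.03. Of 440 member values under alternatives, 367 stayed within the main counting interval and 73 moved out of it. Cpox at 40 to 75% lay between 0.40 and 0.71, Urod there between -0.39 and -0.11, and Fech between 0.11 and 0.36 there and between 0.38 and 0.69 at 75 to 90%. Urod at 15 to 40% reached 0.03 with stages by hemoglobin share alone. Depth limits Alas1 in all stages and Alad, Uros, Cpox and Ppox in the last.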
